A study of Mus musculus with 6 samples.

Results

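Brush border hydrolases and nutrient transporters are the digestive enzymes and carriers that sit on the microvilli and the basal membrane of absorptive cells. A list of 37 such genes was followed across 6 single-colour mouse arrays, out of 19505 genes with a symbol on the array. The list holds 4 disaccharidases, 6 peptidases, 4 other brush border proteins, 3 sugar transporters, 11 transporters of peptides and amino acids and 9 carriers of vitamins, nucleosides and other solutes. Each gene was found by its symbol in the platform annotation, and all 37 had exactly 1 probe set. The arrays carried RNA labelled as colon crypt, the gland of the large intestine's lining, taken from mice of the strain C57BL/6J. The sources used here give neither the age nor the sex of the animals. The group MBELN had 3 arrays from mice gavaged daily for 7 days with exosome-like nanoparticles prepared from mulberry bark, and the group PBS had 3 arrays from control mice. Values are the authors' deposited values per probe set, read here as log2, with a ceiling of 19.93, and arrays are called by their titles.

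The last steps of digestion take place on the brush border. Disaccharidases cut sugars to monosaccharides and peptidases cut oligopeptides to short peptides and amino acids, which sodium-coupled or proton-coupled carriers then move into the cell. Separate carriers on the basal side release the products to the blood, and several of them work as a light chain bound to a heavy chain. These proteins are the classic products of villus enterocytes in the small intestine. The surface cells of the colon carry a smaller share of them, together with carriers for short-chain fatty acids and for vitamins made by bacteria.

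Promoter sequences are given for 6 of the genes because their patterns differ across the arrays as described in the following paragraphs. Mep1a, Slc15a1 and Slc44a4 were high in all 3 PBS arrays, Sis was high in PBS 1 and PBS 3 and dim in PBS 2, Slc46a1 was high in PBS 2 only, and Lct was dim in every PBS array. Each line holds the 250 bases before the gene's start, 5′ to 3′ on the gene's own strand, from RefSeq on GRCm38.p6. The capitals mark matches on either strand to the HNF4 site CAAAGT, the HNF1 site GTTAAT, the CDX site TTTATG, the GATA site AGATAA or the TATA box TATAAA. The HNF4 and HNF1 letters are each only a part of a full binding site, and full sites were not searched. The Mep1a stretch is chr17:43502774-43503023 on the minus strand, with an HNF4 site that begins 29 bases before the start. That of Slc15a1 is chr14:121505255-121505504 on the minus strand, with an HNF4 site at 31 bases, and that of Slc44a4 is chr17:34914216-34914465 on the plus strand, with an HNF4 site at 210 bases. The Sis stretch is chr3:72967864-72968113 on the minus strand, with a reverse HNF1 site at 165 bases, overlapping TATA boxes on opposite strands at 138 and 134 bases and a CDX site at 43 bases. That of Slc46a1 is chr11:78465451-78465700 on the plus strand, with an HNF4 site at 232 bases. That of Lct is chr1:128328319-128328568 on the minus strand, with a reverse and a forward GATA site at 101 and 90 bases and a reverse CDX site at 31 bases.
Mep1a: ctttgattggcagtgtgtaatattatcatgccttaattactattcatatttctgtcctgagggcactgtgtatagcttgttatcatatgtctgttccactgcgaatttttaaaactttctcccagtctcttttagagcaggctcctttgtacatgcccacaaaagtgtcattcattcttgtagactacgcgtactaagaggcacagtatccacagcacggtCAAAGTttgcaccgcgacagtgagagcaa
Slc15a1: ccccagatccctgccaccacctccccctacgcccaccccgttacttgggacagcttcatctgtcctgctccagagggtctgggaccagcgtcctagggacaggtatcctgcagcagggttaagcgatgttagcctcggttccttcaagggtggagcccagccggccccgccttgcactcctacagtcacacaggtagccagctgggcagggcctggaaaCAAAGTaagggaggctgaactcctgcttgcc
Slc44a4: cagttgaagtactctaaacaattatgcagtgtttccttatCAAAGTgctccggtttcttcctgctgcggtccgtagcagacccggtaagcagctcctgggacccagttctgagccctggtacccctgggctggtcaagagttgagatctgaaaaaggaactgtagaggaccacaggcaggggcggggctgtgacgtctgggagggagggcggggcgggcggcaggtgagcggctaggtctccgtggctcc
Sis: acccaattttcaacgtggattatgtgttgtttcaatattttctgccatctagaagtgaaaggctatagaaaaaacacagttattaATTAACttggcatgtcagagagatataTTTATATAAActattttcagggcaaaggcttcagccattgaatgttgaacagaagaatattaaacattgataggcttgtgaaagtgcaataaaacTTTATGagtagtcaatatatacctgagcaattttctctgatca
Slc46a1: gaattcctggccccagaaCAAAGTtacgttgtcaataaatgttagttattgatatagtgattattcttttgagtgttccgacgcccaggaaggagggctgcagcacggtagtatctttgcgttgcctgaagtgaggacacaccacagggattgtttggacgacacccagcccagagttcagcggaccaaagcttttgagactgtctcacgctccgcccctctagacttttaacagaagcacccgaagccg
Lct: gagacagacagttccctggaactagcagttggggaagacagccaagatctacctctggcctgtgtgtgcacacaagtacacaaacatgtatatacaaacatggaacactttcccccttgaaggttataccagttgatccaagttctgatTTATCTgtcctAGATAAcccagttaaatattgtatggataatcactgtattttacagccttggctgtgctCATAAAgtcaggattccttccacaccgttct

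Promoters of 35 of the 37 genes were found in the RefSeq table, with 43 start sites between them, and Mep1b and Slc23a1 were not among these. The HNF4 site was present in 13 of the 43 promoters (30.2%), against 12.6% of all 32851 promoters in the table. Its 12 genes were Ace, Alpi, Mep1a, Rbp2, Slc15a1, Slc19a3, Slc2a2, Slc3a1, Slc44a4, Slc46a1, Slc7a7 and Treh. The GATA site was present in 20.9% of the listed genes' promoters and 9.99% of all promoters. The TATA box stood in 18.6% against 12.4%, the HNF1 site in 9.3% against 6.43%, and the CDX site in 6.98% against 10.8%. These are counts of letters, which for HNF4 and HNF1 are only a part of a full binding site. They carry no test, and genes with several start sites enter more than once.

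The marker genes of the labelled tissue differed between arrays of the same group. Dim probe sets were judged on each array against its 1414 probe sets for odorant and vomeronasal receptors, genes that the gut should not use. Their 95th percentile, called the receptor level, ranged over the arrays with a lowest value of 3.99 (PBS 3) and a highest of 4.44 (MBELN 3). The median of 11 gut epithelium markers was 4.46, 3.40 and 4.89 in MBELN 1 to 3, against 17.73, 17.57 and 17.83 in PBS 1 to 3, and all 11 were lower in MBELN with an adjusted p under 0.05 in the test described further on. The median of 6 colon epithelium markers was 2.95 in PBS 1 and 2.72 in PBS 3, against 14.04 in PBS 2, and 1, 2 and 6 of them were above the receptor level in PBS 1, PBS 3 and PBS 2. Markers of small intestine ran the other way, with medians over 9 genes of 17.12 and 17.68 in PBS 1 and PBS 3, against 7.18 in PBS 2. So did 7 Paneth cell markers, at 19.45 and 19.76 against 3.44, and 5 pancreas markers, at 9.19 and 8.68 against 3.49. The medians of 5 liver markers were 5.48 and 7.37 in PBS 1 and PBS 3, against 10.46 in PBS 2, where Alb, the albumin gene, read 17.59. The ileal bile acid binding protein gene Fabp6 read 19.85 in both PBS 1 and PBS 3, against 4.76 in PBS 2.

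Among the MBELN arrays, 9 heart muscle markers had medians of 18.63 in MBELN 1 and 19.03 in MBELN 3, against 3.68 in MBELN 2. The 9 neuronal markers had medians of 3.83 and 3.70 in MBELN 1 and MBELN 3, against 16.12 in MBELN 2. The defining markers of colon epithelium were dim in all 3, with 1 of 6 above the receptor level on each. Markers of kidney tubule, another tissue with a brush border, had medians between 2.87 and 3.13, and 6 of the 7 were under the receptor level on every array. PBS 2 held the colon markers but also the highest liver markers of the arrays, with a median of 10.46 and Alb at 17.59. On 5 of the 6 arrays, all but PBS 2, the colon markers thus went against the label colon crypt. Each difference between MBELN and PBS is one between arrays so labelled, in which treatment and tissue content cannot be told apart. The part these tissue markers play in any difference below was not tested, and since each array stands for its whole sample, fewer cells of a type and less RNA per cell cannot be told apart.

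**Figure D1:**
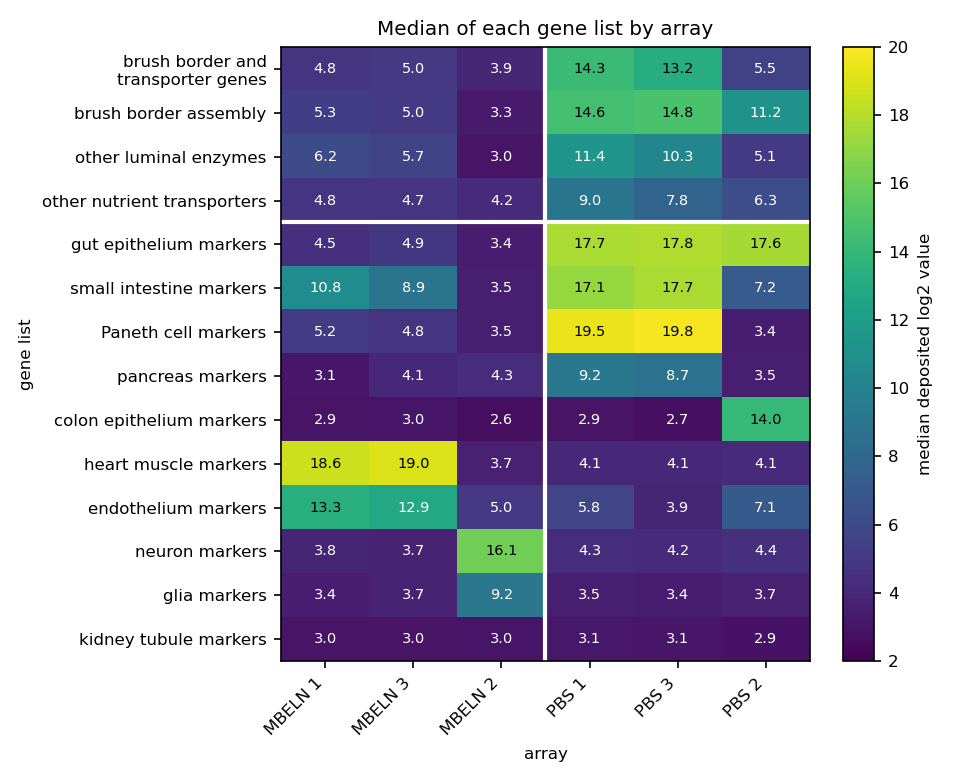
Median deposited log2 value (colour and printed number) of each gene list (rows) on each array (columns); the upper rows are the hydrolase and transporter list and 3 related lists, the lower rows are cell and tissue markers. The listed genes had medians of 14.25 in PBS 1 and 13.22 in PBS 3 against 5.47 in PBS 2, while gut epithelium markers were near 17.7 in all PBS arrays.

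The listed genes read higher on PBS 1 and PBS 3 than on the other arrays. Their median was 4.77, 3.94 and 4.99 in MBELN 1, MBELN 2 and MBELN 3, against 14.25, 5.47 and 13.22 in PBS 1, PBS 2 and PBS 3. The number above the receptor level was 23, 18 and 23 in MBELN 1 to 3 and 32, 24 and 34 in PBS 1 to 3. The same share over all probe sets was 50.7%, 55.2% and 50.3% in MBELN 1 to 3 and 53.1%, 52.0% and 55.0% in PBS 1 to 3. 22 of the 37 were above it in all 3 PBS arrays and 14 in all 3 MBELN arrays. 10 were above it in no MBELN array, and 3 in no PBS array, namely Lct, Slc28a1 and Slc19a3. Slc28a1, the concentrative carrier of pyrimidine nucleosides, was below the level on every array. Over the 37 genes, Pearson's r between arrays was 0.99 for PBS 1 with PBS 3, 0.47 for PBS 1 with PBS 2 and 0.50 for PBS 3 with PBS 2. It was 0.96 for MBELN 1 with MBELN 3, 0.37 for MBELN 1 with MBELN 2 and 0.33 for MBELN 3 with MBELN 2. These describe the likeness of arrays across genes, which are not independent replicates.

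**Figure D2:**
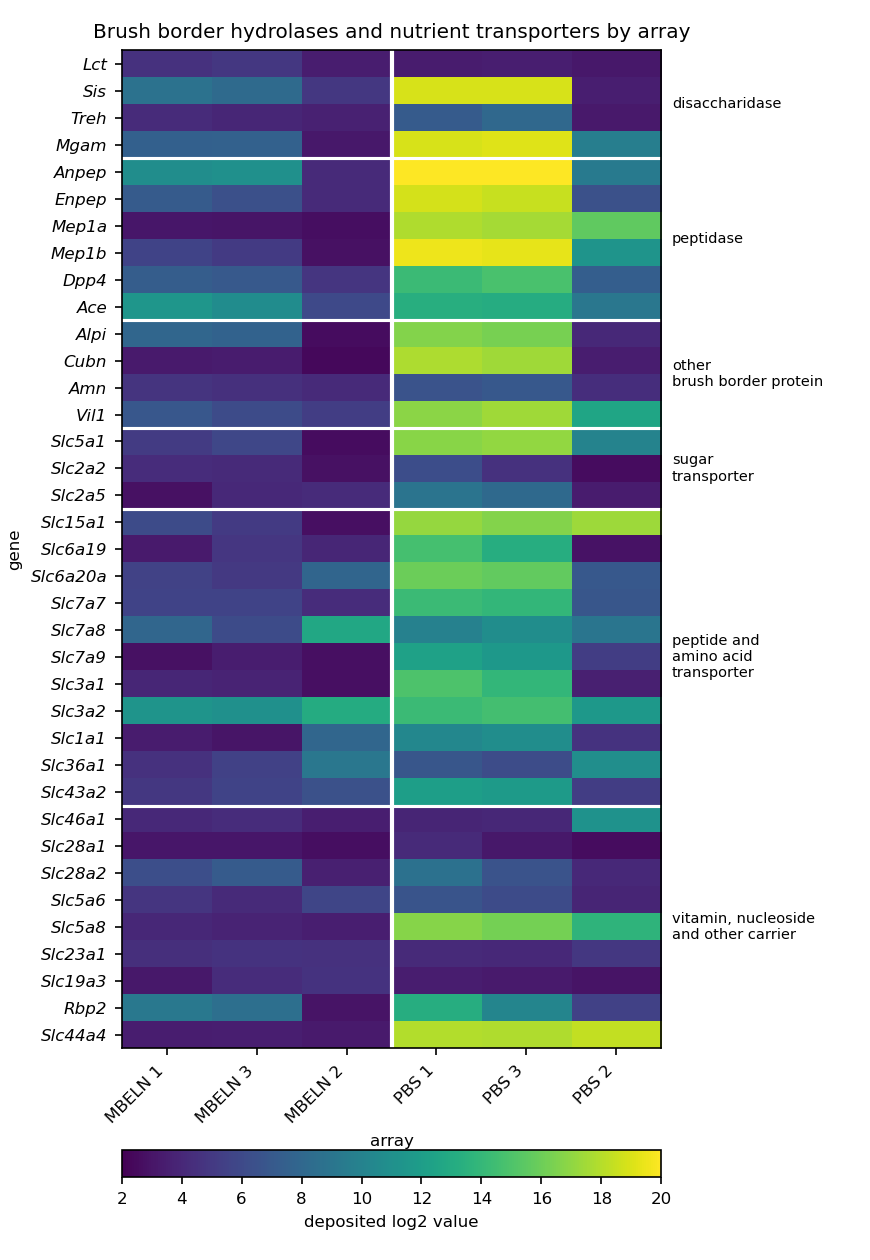
Deposited log2 value (colour) of each of the 37 genes (rows, by role) on each array (columns, MBELN left of PBS). The bright cells lie in PBS 1 and PBS 3, and Mep1a, Slc15a1, Slc5a8 and Slc44a4 are bright in PBS 2 as well, at 15.62, 17.35, 13.71 and 18.34.

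Set against PBS 2, the arrays PBS 1 and PBS 3 were higher for most of the list. 26 of the 37 genes (70.3%) were at least 2 log2 units, or 4-fold, higher in both PBS 1 and PBS 3 than in PBS 2, which held for 3.87% of all probe sets. 2 genes (5.41%), Slc36a1 and Slc46a1, were that much lower in both, against 3.71% of all probe sets, and the other 9 met neither condition. The arrays are replicates of 1 labelled group, so the split is described and not tested. With every value under its receptor level set to that level, 25 genes were higher by the same margin, against 3.52% of all probe sets. Sis, Cubn, Alpi, Slc3a1 and Slc6a19 were under the receptor level in PBS 2, so only a bound can be given for them. The mean of PBS 1 and PBS 3 exceeded PBS 2 by at least 14.59 for Sis, 13.27 for Cubn, 12.13 for Alpi, 10.10 for Slc3a1 and 9.63 for Slc6a19. Enpep and Mgam were measured on both sides and exceeded PBS 2 by 12.22 and 9.30, and Anpep, at the ceiling in PBS 1 and PBS 3, by at least 10.60. Just outside that margin were Mep1a and Slc2a2, for which PBS 3 exceeded PBS 2 by 1.96 and 1.92, and just inside it was Amn, for which PBS 1 exceeded PBS 2 by 2.26. All 4 of the other brush border proteins were on the higher side, as were 5 of 6 peptidases, 3 of 4 disaccharidases, 8 of 11 peptide and amino acid transporters, 2 of 3 sugar transporters and 4 of 9 of the remaining carriers.

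**Figure D3:**
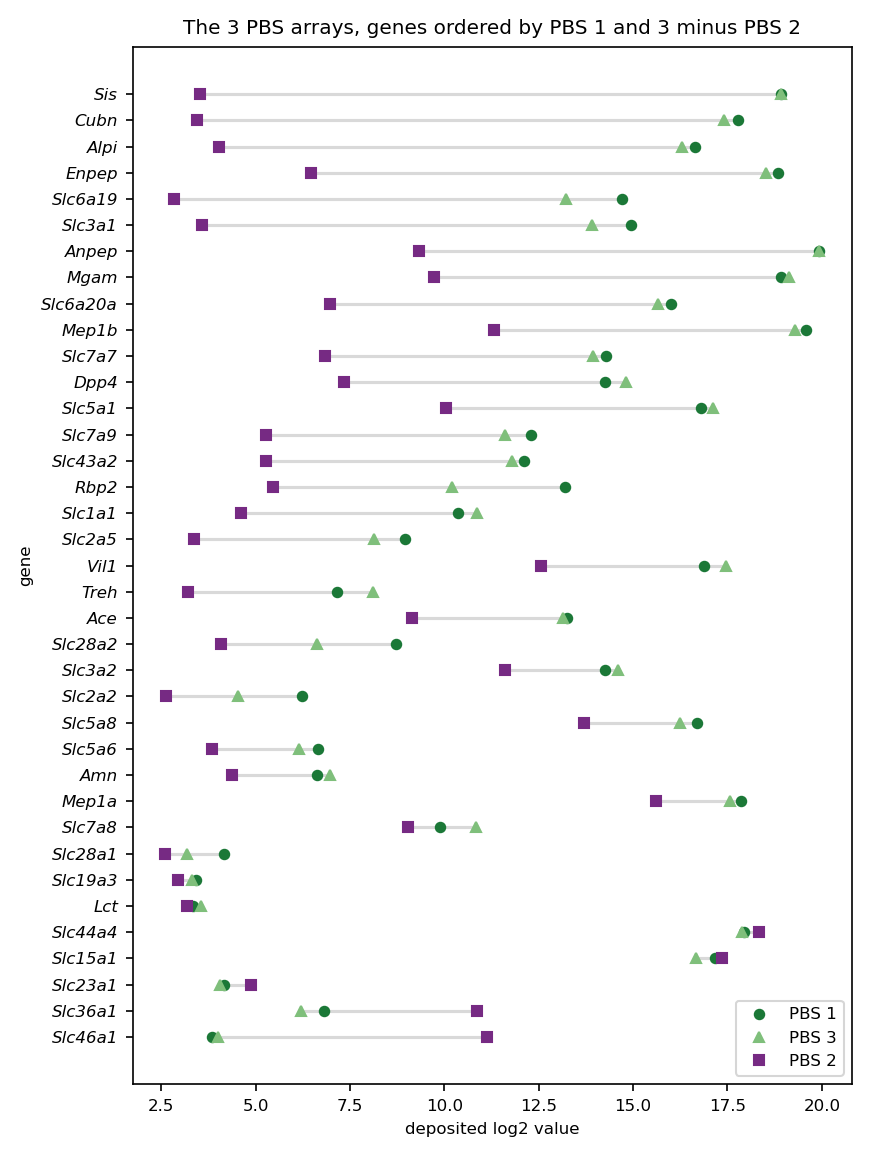
Deposited log2 values (horizontal axis) of the 37 genes (vertical axis) in PBS 1 (circles), PBS 3 (triangles) and PBS 2 (squares), ordered by the mean of PBS 1 and PBS 3 minus PBS 2. For Sis, at the top, PBS 1 and PBS 3 are at 18.92 and PBS 2, at 3.53, is under its receptor level, and for Slc46a1, at the bottom, PBS 2 is at 11.14 and the others at 3.84 and 4.01. Positions of genes that are dim on one side have no exact order.

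Among the disaccharidases, sucrase-isomaltase had the widest split within PBS. Sis, which digests sucrose and starch fragments, read 8.78 and 8.21 in MBELN 1 and MBELN 3 and 4.94 in MBELN 2, against 18.92 in both PBS 1 and PBS 3 and 3.53 in PBS 2. PBS 2 was thus the lowest of the 6 arrays for Sis, and the groups overlapped. Mgam, maltase-glucoamylase, which releases glucose from starch ends, read 7.53 and 7.60 in MBELN 1 and MBELN 3 and 3.18 in MBELN 2, against 18.92 and 19.14 in PBS 1 and PBS 3 and 9.72 in PBS 2. Every MBELN array was below every PBS array for Mgam. Treh, trehalase, read 4.21, 3.68 and 3.94 in MBELN 1 to 3, against 7.16 and 8.11 in PBS 1 and PBS 3 and 3.21 in PBS 2. Lct, lactase, the enzyme of milk sugar that falls at weaning in mammals, read 4.55, 3.47 and 4.92 in MBELN 1 to 3, against 3.34, 3.18 and 3.54 in PBS 1 to 3. It stayed under the receptor level in all PBS arrays and was slightly above it in MBELN 1 and MBELN 3.

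The peptidases were the role in which every gene was above the receptor level in all PBS arrays. Anpep, aminopeptidase N, which trims neutral residues, read 10.84 and 11.06 in MBELN 1 and MBELN 3 and 4.15 in MBELN 2, against 19.93 in both PBS 1 and PBS 3 and 9.33 in PBS 2. The PBS 1 and PBS 3 values are the ceiling of the table, so its excess there may be understated. Enpep, which trims acidic residues, read 7.20 and 6.36 in MBELN 1 and MBELN 3 and 4.16 in MBELN 2, against 18.83 and 18.52 in PBS 1 and PBS 3 and 6.46 in PBS 2. For both aminopeptidases PBS 2 lay inside the MBELN range, whereas PBS 1 and PBS 3 stood far above. Dpp4, which removes dipeptides after proline, read 7.32 and 7.04 in MBELN 1 and MBELN 3 and 4.79 in MBELN 2, against 14.25 and 14.82 in PBS 1 and PBS 3 and 7.35 in PBS 2. Its groups were separated by only the small step between MBELN 1 and PBS 2.

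The meprin subunits had PBS 2 gaps of different size. Meprins are secreted or membrane-bound metalloproteases of the brush border, built from an alpha subunit (Mep1a) and a beta subunit (Mep1b). Mep1a read 3.06 and 3.02 in MBELN 1 and MBELN 3 and 2.69 in MBELN 2, against 17.86 and 17.58 in PBS 1 and PBS 3 and 15.62 in PBS 2. Mep1b read 5.63 and 5.06 in MBELN 1 and MBELN 3 and 2.80 in MBELN 2, against 19.58 and 19.30 in PBS 1 and PBS 3 and 11.32 in PBS 2. PBS 2 was the lowest PBS array for both subunits, by 2.10 for Mep1a and 8.12 for Mep1b. The angiotensin-converting enzyme gene Ace, a dipeptidase of the brush border and of endothelium, read 11.43 and 10.73 in MBELN 1 and MBELN 3 and 5.96 in MBELN 2, against 13.26 and 13.14 in PBS 1 and PBS 3 and 9.15 in PBS 2. Here MBELN 1 and MBELN 3 were above PBS 2.

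The other brush border proteins were highest in PBS 1 and PBS 3 without exception. Alpi, the intestinal alkaline phosphatase, read 7.97 and 7.64 in MBELN 1 and MBELN 3 and 2.61 in MBELN 2, against 16.63 and 16.28 in PBS 1 and PBS 3 and 4.04 in PBS 2. Cubn encodes cubilin, the ileal receptor that takes up cobalamin bound to intrinsic factor. It read 3.30, 2.37 and 3.39 in MBELN 1 to 3, all under the receptor level, against 17.78 and 17.41 in PBS 1 and PBS 3 and 3.45 in PBS 2, which was also under it. Amn, the amnionless partner that anchors cubilin in the membrane, read 4.74, 4.15 and 4.47 in MBELN 1 to 3, against 6.64 and 6.97 in PBS 1 and PBS 3 and 4.38 in PBS 2. Both partners were highest in PBS 1 and PBS 3, while PBS 2 stood just above the MBELN arrays for Cubn and inside their range for Amn. Vil1, villin, which bundles the actin core of the microvillus, read 6.90 and 6.08 in MBELN 1 and MBELN 3 and 5.27 in MBELN 2, against 16.88 and 17.45 in PBS 1 and PBS 3 and 12.55 in PBS 2. All PBS arrays were above all MBELN arrays for Vil1.

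Of the sugar transporters, only Slc5a1 was above the receptor level in all PBS arrays. Slc5a1, the sodium-coupled importer of glucose and galactose, read 5.16 and 5.82 in MBELN 1 and MBELN 3 and 2.59 in MBELN 2, against 16.79 and 17.11 in PBS 1 and PBS 3 and 10.05 in PBS 2. Slc2a5, the facilitative fructose carrier of the brush border, read 2.83, 4.20 and 4.09 in MBELN 1 to 3, against 8.95 and 8.13 in PBS 1 and PBS 3 and 3.36 in PBS 2. Slc2a2, the basolateral exit for hexoses, read 4.26, 2.78 and 4.17 in MBELN 1 to 3, against 6.23 and 4.54 in PBS 1 and PBS 3 and 2.62 in PBS 2. For both facilitative carriers PBS 2 was under its receptor level and inside or below the MBELN range.

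The peptide importer and the importers of amino acids had different patterns within PBS. Slc15a1, the proton-coupled importer of short peptides, read 6.13 and 5.03 in MBELN 1 and MBELN 3 and 2.77 in MBELN 2, against 17.17 and 16.65 in PBS 1 and PBS 3 and 17.35 in PBS 2. It was high in all PBS arrays and the PBS SD was 0.36. Slc6a19, the main sodium-coupled importer of neutral amino acids, read 3.33, 3.94 and 4.82 in MBELN 1 to 3, against 14.70 and 13.22 in PBS 1 and PBS 3 and 2.85 in PBS 2. PBS 2, MBELN 1 and MBELN 2 were under their receptor levels for Slc6a19, so their order is not resolved. Slc6a20a, which imports proline and related imino acids, read 5.59 and 4.99 in MBELN 1 and MBELN 3 and 7.86 in MBELN 2, against 15.99 and 15.66 in PBS 1 and PBS 3 and 6.97 in PBS 2. MBELN 2 was higher than PBS 2 for this gene.

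The brush border exchanger of cystine and cationic amino acids joins Slc7a9 to the heavy chain Slc3a1, and mutations of either cause cystinuria in humans. Slc7a9 read 2.79, 2.71 and 3.41 in MBELN 1 to 3, against 12.29 and 11.60 in PBS 1 and PBS 3 and 5.27 in PBS 2. Slc3a1 read 3.91, 2.76 and 3.79 in MBELN 1 to 3, against 14.95 and 13.92 in PBS 1 and PBS 3 and 3.59 in PBS 2. Both subunits were under the receptor level in every MBELN array, and in PBS 2 only Slc7a9 was above it.

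On the basal side, the light chains Slc7a7, for cationic amino acids, and Slc7a8, for neutral ones, share the heavy chain Slc3a2. Slc7a7 read 5.59 and 5.65 in MBELN 1 and MBELN 3 and 4.29 in MBELN 2, against 14.29 and 13.94 in PBS 1 and PBS 3 and 6.85 in PBS 2. Slc7a8 read 7.95 and 6.13 in MBELN 1 and MBELN 3 and 12.77 in MBELN 2, against 9.89 and 10.84 in PBS 1 and PBS 3 and 9.03 in PBS 2. Slc3a2, which most cell types express, read 11.34 and 11.02 in MBELN 1 and MBELN 3 and 13.05 in MBELN 2, against 14.25 and 14.60 in PBS 1 and PBS 3 and 11.60 in PBS 2. The light chains thus had their highest values in different arrays, PBS 1 for Slc7a7 and MBELN 2 for Slc7a8. Slc7a7 and Slc7a8 lie on chromosome 14 with 15 protein-coding genes between them.

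The remaining amino acid carriers work without a heavy chain. Slc1a1, an importer of glutamate also found in neurons, read 3.36 and 3.0 in MBELN 1 and MBELN 3 and 7.96 in MBELN 2, against 10.35 and 10.86 in PBS 1 and PBS 3 and 4.62 in PBS 2. Slc43a2, a facilitative carrier of large neutral amino acids, read 4.90, 6.45 and 5.61 in MBELN 1 to 3, against 12.10 and 11.78 in PBS 1 and PBS 3 and 5.28 in PBS 2. PBS 2 lay inside the MBELN range for both. Slc36a1, a proton-coupled carrier of small amino acids, read 4.58 and 5.47 in MBELN 1 and MBELN 3 and 9.15 in MBELN 2, against 6.82 and 6.19 in PBS 1 and PBS 3 and 10.87 in PBS 2. PBS 2 was the highest array for Slc36a1, by 4.05 over PBS 1.

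Among the vitamin carriers, the folate transporter was high in PBS 2 alone. Slc46a1, the proton-coupled folate transporter, read 4.10, 3.50 and 4.29 in MBELN 1 to 3, against 3.84 and 4.01 in PBS 1 and PBS 3 and 11.14 in PBS 2. PBS 2 was at least 7.05 above PBS 1 and PBS 3 taken at their receptor levels or above, and the other 5 arrays were at or near those levels. Slc44a4, a choline-like carrier known in human colon as the transporter of thiamine pyrophosphate, read 3.47, 3.32 and 3.50 in MBELN 1 to 3, against 17.94 and 17.88 in PBS 1 and PBS 3 and 18.34 in PBS 2. Slc5a8, the sodium-coupled carrier of short-chain fatty acids and other monocarboxylates, read 4.03, 3.50 and 3.77 in MBELN 1 to 3, against 16.70 and 16.23 in PBS 1 and PBS 3 and 13.71 in PBS 2. Slc44a4 and Slc5a8 were far above the receptor level in every PBS array and under it in every MBELN array.

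Rbp2, the intracellular retinol-binding protein of absorptive cells, read 9.19 and 8.57 in MBELN 1 and MBELN 3 and 2.97 in MBELN 2, against 13.20 and 10.21 in PBS 1 and PBS 3 and 5.47 in PBS 2. Slc28a2, the concentrative carrier of purine nucleosides, read 6.29 and 7.14 in MBELN 1 and MBELN 3 and 3.55 in MBELN 2, against 8.71 and 6.63 in PBS 1 and PBS 3 and 4.09 in PBS 2. For both genes MBELN 1 and MBELN 3 were above PBS 2. MBELN 2 was the lowest array for Rbp2. For Slc28a2, MBELN 2 and PBS 2 were both under their receptor levels, so which was lower is not resolved. Slc5a6, which imports biotin and pantothenate, read 4.77, 5.75 and 4.14 in MBELN 1 to 3, against 6.65 and 6.14 in PBS 1 and PBS 3 and 3.86 in PBS 2. The ascorbate importer Slc23a1 and the thiamine importer Slc19a3 stayed between 2.95 and 4.89 on all arrays.

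The MBELN arrays also differed among themselves. 12 of the 37 genes (32.4%) were at least 2 log2 units higher in both MBELN 1 and MBELN 3 than in MBELN 2, against 11.0% of all probe sets. They were Sis, Mgam, Anpep, Enpep, Mep1b, Dpp4, Ace, Alpi, Slc5a1, Slc15a1, Slc28a2 and Rbp2, so 5 of the 6 peptidases and 2 of the 4 disaccharidases were among them. 4 genes (10.8%), Slc6a20a, Slc7a8, Slc1a1 and Slc36a1, were that much lower in both, near the 11.9% of all probe sets. With every value under its receptor level set to that level, 9 genes were higher and 4 lower by the same margin. All probe sets then gave 10.3% and 10.8%. MBELN 1 and MBELN 3 also held more of the small intestine markers, with medians of 10.76 and 8.89 against 3.53 in MBELN 2, and of 3 endothelium markers, at 13.33 and 12.87 against 4.99. Within the small intestine list, 6 of the 9 genes met the same margin, among them Apoa4, an apolipoprotein gene of enterocytes, at 15.87 and 13.80 in MBELN 1 and MBELN 3 against 3.39 in MBELN 2. Fabp6 did not, at 3.04 and 4.85 against 3.53, nor did the ileal bile acid importer Slc10a2, at 3.63 and 3.07 against 2.55. Another of the 6 was Gata4, the only gene of that list under the receptor level in every PBS array. It read 11.32 and 12.14 in MBELN 1 and MBELN 3 against 3.45 in MBELN 2. Those were also the arrays high in heart muscle markers, with medians of 18.63 and 19.03. Gata4 may therefore not stand for small intestine there, and the tissue it came from was not tested. The neuronal markers and 5 glial markers ran the other way, the glial ones at 3.37 and 3.73 in MBELN 1 and MBELN 3 against 9.17 in MBELN 2, and the part of any of these in the differences was not tested.

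Against PBS 2 alone, 11 genes in MBELN 1, 16 in MBELN 2 and 11 in MBELN 3 were at least 2 units lower, where all probe sets gave 8.58%, 13.1% and 8.55%. Higher by as much were 5, 2 and 4 genes, where all probe sets gave 8.64%, 14.1% and 9.33%. Counts of the members, as shares of 37, were 29.7%, 43.2% and 29.7% for the lower side and 13.5%, 5.41% and 10.8% for the higher side. The hydrolases and carriers that exceeded PBS 2 in MBELN 1 included Sis, by at least 4.45, and Rbp2, by 3.72. Those in MBELN 2 were Slc1a1, by 3.34, and Slc7a8, by 3.74.

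The difference between the labelled groups was tested with limma over all 22206 transcript probe sets, with Benjamini-Hochberg adjustment and a threshold of 0.05. 5 of the 37 genes (13.5%) were lower in MBELN, Slc44a4, Mep1a, Slc5a8, Slc15a1 and Vil1, against 3.76% of all probe sets, and 0 were higher, against 1.42%. In either direction 5.18% of all probe sets passed. Without adjustment, 12 (32.4%) had p under 0.05, against 17.8% of all probe sets. For 12 genes (32.4%) every MBELN array was below every PBS array, against 13.4% of all probe sets, for 0 it was the reverse, against 11.9%, and the other 25 overlapped. The 12 include Cubn, whose PBS 2 and MBELN values were all under the receptor level and so are not resolved. The difference was negative for 34 genes with a median of -5.76, or -5.41 with the 10 genes that were dim throughout one group at their bound, while the median over all probe sets was 0.09. Nothing in the labels says that the arrays are separate mice. The p-values therefore reflect only how far these samples scatter, which may be technical scatter, and the number of arrays limits the precision. Arrays of the same group also differed in tissue markers, as given above, and the parts of the scatter were not separated.

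Slc44a4 averaged 3.43 ± 0.09 in MBELN and 18.05 ± 0.25 in PBS (SD, n = 3 each), a difference of -14.63 ± 0.27 (SE, adjusted p = 0.000138). Mep1a averaged 2.92 ± 0.20 in MBELN and 17.02 ± 1.22 in PBS, a difference of -14.10 ± 0.65 (adjusted p = 0.0008). Slc5a8 averaged 3.76 ± 0.26 in MBELN and 15.55 ± 1.61 in PBS, a difference of -11.78 ± 0.82 (adjusted p = 0.00225). All 3 were under the receptor level on every MBELN array, so against those levels Slc44a4 was at least 13730-fold, Mep1a at least 6701-fold and Slc5a8 at least 2414-fold lower in MBELN. Slc15a1 averaged 4.64 ± 1.72 in MBELN and 17.06 ± 0.36 in PBS, a difference of -12.41 ± 0.88 (adjusted p = 0.0023). Vil1 averaged 6.08 ± 0.81 in MBELN and 15.63 ± 2.68 in PBS, a difference of -9.54 ± 1.38 (adjusted p = 0.0198). The Vil1 call was lost without MBELN 1 (adjusted p = 0.0776), MBELN 3 (0.0905), PBS 1 (0.101) or PBS 3 (0.0832).

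Other genes with differences of similar size did not pass. The difference was -12.23 ± 2.40 for Mep1b (adjusted p = 0.0508), -10.13 ± 2.12 for Slc5a1 (adjusted p = 0.0604), -9.86 ± 3.98 for Cubn (adjusted p = 0.282) and -9.82 ± 2.89 for Mgam (adjusted p = 0.149). Sis averaged 7.31 ± 2.07 in MBELN and 13.79 ± 8.88 in PBS, where the SD among PBS arrays was larger than the difference of -6.48 ± 4.43 (adjusted p = 0.523). The groups of Mep1b, Slc5a1, Cubn and Mgam did not overlap, nor did those of Slc7a9, Slc7a7 and Dpp4. For Cubn, PBS 2 at 3.45 and MBELN 3 at 3.39 were both under the receptor level, so that separation is not resolved. Without PBS 2, 22 genes were lower, including Sis at -11.61 (adjusted p = 0.0131), Cubn at -14.57 (adjusted p = 0.00167) and Mep1b at -14.94 (adjusted p = 0.00327), and 7.21% of all probe sets passed. Without MBELN 2, 7 were lower and Lct was higher, while 16.8% of all probe sets passed. Without PBS 2 and MBELN 2, 29 were lower and Lct was higher, while 30.5% of all probe sets passed.

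The hybridisation controls, transcripts added to every sample before hybridisation, fell into a higher level in MBELN 1, MBELN 3 and PBS 2 and a lower level in MBELN 2, PBS 1 and PBS 3. These levels ran along the tissue markers above. The higher level set MBELN 1 and MBELN 3, high in heart muscle markers, against PBS 2, high in colon markers. The lower level set MBELN 2, high in neuronal markers, against PBS 1 and PBS 3, high in small intestine markers. Treatment and marker content therefore cannot be told apart within a level either. Within the higher level, differences of both signs occurred. The positive ones included Sis at 4.96, Alpi at 3.76, Rbp2 at 3.41, Slc28a2 at 2.63 and Ace at 1.93. Since Sis, Alpi and Slc28a2 were under the receptor level in PBS 2, their excess over that level was at least 4.17, 3.48 and 2.39. Within the lower level Sis was at -13.97, while Slc36a1, Slc7a8 and Slc19a3 were among the genes with a positive difference. The median difference of the list was -0.11 within the higher level and -8.74 within the lower level. Slc44a4, Mep1a, Slc5a8, Slc15a1 and Vil1 were lower within both levels. Each of these fits has 1 residual degree of freedom and a lone array, PBS 2 or MBELN 2, that is assumed to vary like the others, and the count was again 5 in a fit that took the level as a block.

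**Figure D4:**
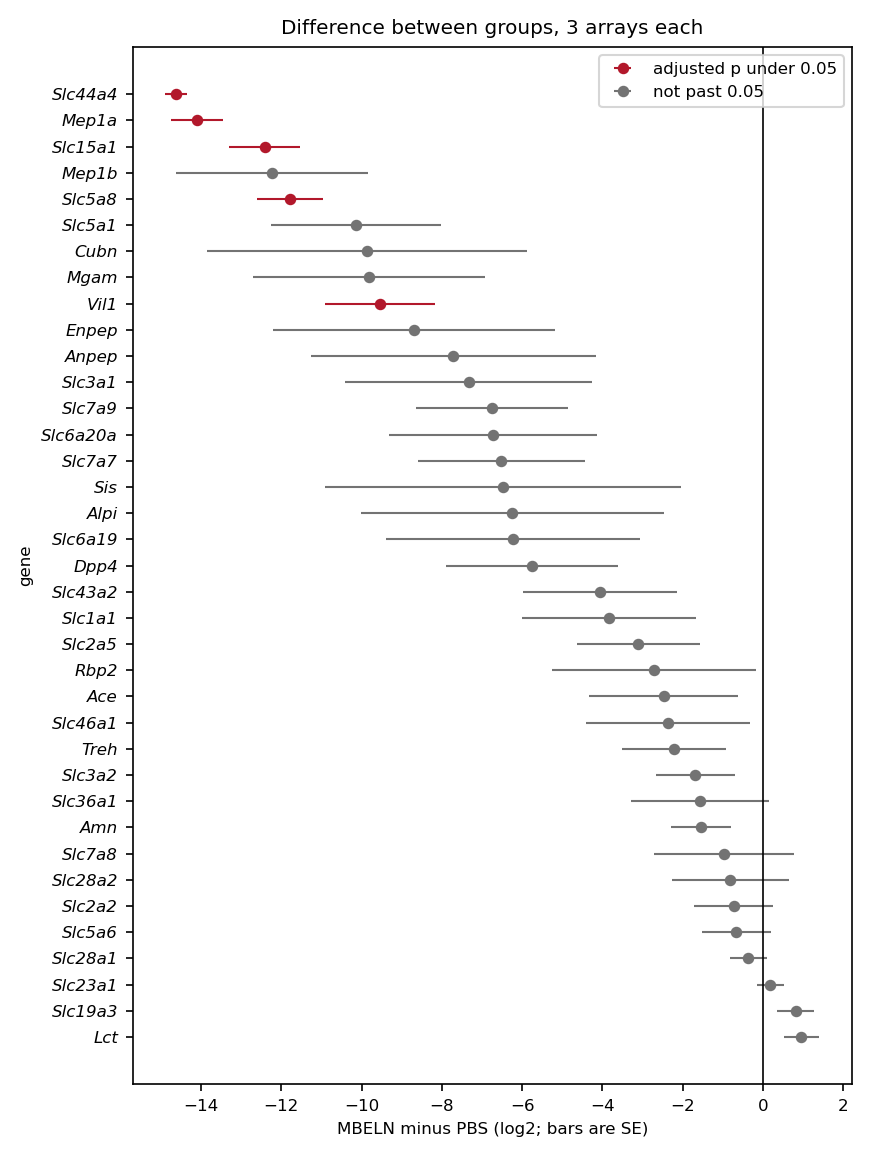
Difference of group means, MBELN minus PBS (horizontal axis, log2, points; bars are SE from the limma fit, 3 arrays per group), for each of the 37 genes (vertical axis), with the 5 genes past the adjusted threshold of 0.05 in red. Slc44a4 has the most negative value, -14.63, with the shortest bar among the 5, and Sis has the widest bar, ± 4.43.

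Genes that build the microvillus were lower in MBELN in most cases. Of 18 brush border assembly genes, 15 were lower in MBELN, 0 were higher, and the median difference was -7.63, beside the 3.76% of all probe sets that were lower. Anks4b, a scaffold of the complex that links microvillus tips, read 3.56, 3.17 and 3.33 in MBELN 1 to 3, against 10.68 and 11.72 in PBS 1 and PBS 3 and 9.72 in PBS 2, and was at least 84.34-fold lower in MBELN (adjusted p = 0.0025). Myo1d, a membrane-bound myosin, read 7.98, 8.12 and 7.83 in MBELN 1 to 3, against 16.48 and 16.99 in PBS 1 and PBS 3 and 14.75 in PBS 2 (difference -8.10 ± 0.62, adjusted p = 0.00266). The tip-link protocadherin gene Cdhr5 differed by -12.43 ± 1.01 (adjusted p = 0.00328) and the light chain gene Calml4, dim in every MBELN array, was at least 148.8-fold lower (adjusted p = 0.00368). 11 of the 18 were at least 2 units higher in PBS 1 and PBS 3 than in PBS 2, beside 3.87% of all probe sets. The widest such split was that of Tmigd1, an adhesion protein of the brush border, at 3.37, 2.90 and 2.43 in MBELN 1 to 3, against 19.62 and 19.33 in PBS 1 and PBS 3 and 3.21 in PBS 2.

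Of 8 measured genes among 11 other enzymes of the luminal surface, 0 passed the threshold with limma and 1 had an unadjusted p under 0.05. Over all probe sets these shares were 5.18% and 17.8%, so the counts do not set these enzymes apart. The enzyme with the unadjusted p under 0.05, Naaladl1, a peptidase of the ileum, read 4.33, 2.30 and 3.46 in MBELN 1 to 3, against 18.73 and 18.64 in PBS 1 and PBS 3 and 8.51 in PBS 2 (adjusted p = 0.0934). 6 of the 8 were at least 2 units higher in PBS 1 and PBS 3 than in PBS 2, beside 3.87% of all probe sets. Dpep1, a membrane dipeptidase, read 14.22 and 13.77 in MBELN 1 and MBELN 3 and 2.47 in MBELN 2, against 17.93 and 17.83 in PBS 1 and PBS 3 and 10.53 in PBS 2.

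Of 26 measured genes among 27 other nutrient transporters, 4 were lower in MBELN and 0 were higher, beside 3.76% and 1.42% of all probe sets. The number past the threshold ran between 1 and 11 with each array left out, at 1 without MBELN 1, MBELN 3 or PBS 1, 2 without PBS 3, 7 without MBELN 2 and 11 without PBS 2. Slc39a4, the zinc importer whose loss causes a zinc deficiency in humans, read 3.62, 3.28 and 3.06 in MBELN 1 to 3, against 13.21 and 12.93 in PBS 1 and PBS 3 and 11.15 in PBS 2. It was at least 278.0-fold lower in MBELN (adjusted p = 0.00206). Slc6a14, a broad amino acid importer, read 2.98, 3.20 and 2.29 in MBELN 1 to 3, against 12.17 and 10.29 in PBS 1 and PBS 3 and 15.39 in PBS 2. It was under the receptor level on every MBELN array and at least 316.8-fold lower there (adjusted p = 0.0151). The others, each with an adjusted p of 0.0209, were the phosphate importer Slc34a2 (difference -11.69 ± 1.72) and the nucleoside carrier Slc28a3, which was dim in every MBELN array and at least 5.865-fold lower. 10 of the 26 were at least 2 units higher in PBS 1 and PBS 3 than in PBS 2, and 5 were that much lower, beside 3.87% and 3.71% of all probe sets. The 5 included the chloride exchanger Slc26a3, at 10.48 and 11.26 in PBS 1 and PBS 3 against 17.55 in PBS 2, and the glucose carrier Slc2a1, at 9.30 and 8.06 against 15.90.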

How the data were processed

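The study labels 6 single-colour arrays of mouse RNA, 3 titled MBELN and 3 titled PBS. Per the labels' protocols, Trizol was used for the extraction and 90 ng of total RNA was the input for biotinylated cRNA by an Affymetrix method. The label text also mentions an Ion AmpliSeq assay, which was not resolved. The values the authors deposited, 1 for each probe set on each array, were taken to be log2, a scale inferred from their range. Per the submitters' processing notes, Transcriptome Analysis Console 4.0 was used, and how it normalized or summarized the signal is not stated.

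Of 28846 probe sets, 6640 controls were left out and 22206 entered the test. 19572 had 1 gene symbol, 0 had several and 2634 had none. MBELN was compared with PBS in a model with no covariates, fitted with R 4.3.3, limma 3.58.1 (lmFit, eBayes) and statmod 1.5.0. P-values were two-sided and adjusted by the Benjamini-Hochberg method over all 22206 probe sets, the threshold was 0.05, and the fit had 4 residual and 1.66 prior degrees of freedom. The procedure was tested on simulated data. A bound on a fold uses the mean of the dim group's receptor levels. Gaps between arrays of a group were counted at 2 log2 units and not tested. Promoter letters were searched on both strands in Python 3.11.15, and figures were drawn with matplotlib 3.10.9.

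The 37 genes, the other gene lists and the markers were chosen with earlier results of these data known. All 37 are accounted for. Genes outside them were named as the up to 4 with the smallest p of a list or as abundant markers. Naaladl1, Dpep1, Tmigd1, Slc26a3 and Slc2a1 were named after their values were seen. Alternatives were 2 normalizations, dim probe sets left out, robust variances with a trend, array weights, blocks for replicate number and hybridisation control level, fits within each level, arrays left out, and other thresholds and gaps.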

Additional observations from a re-analysis of the deposited data

How the results depend on the processing

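Of 214 recomputed values, 165 stayed the same, 45 moved, 4 lost their call and 0 reversed. A count stayed the same if it was within 1.5 times or remained 0. A gene's difference did so if it kept its direction and its side of the threshold. The median difference did so if it moved by less than the pooled SD of the list's medians on the arrays of each group. Of the 37 genes, 5 differed under quantile normalization, under median centring and with a block for the hybridisation control level, 7 with dim probe sets left out or with a trended robust variance, and all 5 reported genes were among them each time. The count was 23 with array weights, 16 within the higher and 30 within the lower hybridisation control level, 30 without PBS 2 and MBELN 2, and 4 to 22 with each array left out in turn, with 22 reached without PBS 2 and 8 without MBELN 2. The median difference was -0.11 within the higher and -8.74 within the lower level and ran from -8.16 to -3.92 with each array left out. The 4 lost calls were those of Vil1. For 15 assembly genes the range was 5 to 17 with each array left out, and 6 passed at an adjusted p of 0.01.

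The 0 other luminal enzymes became 2 with array weights and 6 without PBS 2 and MBELN 2, beside 25.9% and 30.5% of all probe sets. Their number ran from 0 to 2 with each array left out and was 1 at a threshold of 0.1. The 4 other transporters became 15 with array weights, 7 with the level as a block, 13 and 20 within the higher and lower level, 17 without PBS 2 and MBELN 2, 1 to 11 with each array left out, with 1 without MBELN 1, MBELN 3 or PBS 1, and 1 at a threshold of 0.01. All 1150 probe sets became 5757 with array weights, 4174 and 7234 within the higher and lower level, 6769 without PBS 2 and MBELN 2, 377 to 3738 with each array left out, and 407 and 1772 at thresholds of 0.01 and 0.1. The cause of these shifts was not tested, and the fits also differ in the number of arrays that they use.

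With the replicate number as a block, 6 of the 37 genes and 456 of all probe sets passed, Slc5a1 (adjusted p = 0.0488) joining the 5. The labels do not state that same-numbered arrays are pairs, so the numbers were not taken as pairs. The deviations of same-numbered arrays from their group means correlated at -0.03, -0.07 and -0.06. Those of differently numbered arrays ran from -0.09 to 0.08. Arrays of a group differed in tissue markers, so these values cannot decide whether arrays were paired. Counts of genes 2 units lower or higher in PBS 2 moved by under 1.5 times with other gaps or normalizations. In an alternative chosen after seeing the data, values under the receptor level were set to that level. This left 25 genes lower and 2 higher in PBS 2, against 3.52% and 3.45% of all probe sets. It left 9 genes lower and 4 higher in MBELN 2, against 10.3% and 10.8% of all probe sets. A gap of 4 units, also chosen after seeing the data, left 5 genes lower and 2 higher in MBELN 2 than in both MBELN 1 and MBELN 3. At that gap the share of all probe sets was not counted. With the 99th percentile as the receptor level, 10 genes were above it in MBELN 2. Values near the receptor level or at the ceiling of the scale bound what a difference can show.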
